A study of Sus scrofa with 3 samples.

Results

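The liver of castrated male pigs given testosterone (CMT) was compared with the liver of castrated male pigs given none (CM). All features of type mRNA with a deposited FPKM of at least 1 in both libraries were compared. This held for 15877 of the 22945 mRNA features and of the 34579 features of all types in the series. FPKM stands for fragments per kilobase of transcript, scaled to library size, but the deposited values have a different scale, described below. The pigs were male Wuzhishan miniature pigs with a stated age of 6 to 7 months, and all ate a diet rich in fat and cholesterol (HFC). The methods give this age for the pigs as obtained, before acclimation and the weeks of HFC diet, so they were older when the liver was taken. Both CM and CMT pigs were surgically castrated, and CMT pigs received weekly intramuscular testosterone propionate in corn oil from the day of castration. The methods do not say whether CM pigs were injected with oil alone. A further group of sham-operated intact males (IM) is given beside the others for reference. Each group was 1 library of pooled liver RNA, with 3 pigs per pool in the labels, while the methods give groups of 6, so nothing below has a replicate error and no p-value is given for a difference between groups. "Rose", "fell", "higher" and "lower" in counts of genes mean a ratio of at least 1.5-fold between the CMT and the CM library.

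Testosterone and its metabolite dihydrotestosterone are steroid hormones that change transcription in their target cells, and the liver both responds to them and clears them. In male mammals, androgens also shape the pulses of growth hormone from the pituitary, and the liver reads those pulses through the growth hormone receptor and STAT5. Many hepatic cytochrome P450 enzymes, sulfotransferases and secreted proteins are known to differ between the sexes for this reason. In pigs, the P450 enzymes CYP1A2, CYP2A19 and CYP2E1 also clear skatole, a compound that builds up in the fat of intact males.

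The reads behind most values could be recovered from the spacing of the FPKM values. They came to 36158202 in CM and 25446543 in CMT, with 32225267 in IM. An interval given with a fold is a 95% exact (Clopper-Pearson) interval on those reads. It covers counting error only, not the spread between pigs, and a gene without an interval is one whose reads could not be recovered. On a transcript of 1 kb, 3 reads stand for an FPKM of 0.877 in CM and 1.47 in CMT. The library divisors behind these values, 3.42 in CM and 2.04 in CMT, were not proportional to the recovered reads. The deposited values were larger than FPKM scaled to those reads would be, by a factor that differed between the libraries. Levels given here, such as the minimum of 1 FPKM, are therefore not those of ordinary FPKM. All 20 hepatocyte markers found were above the minimum, with ALB (albumin) at 476360.0 FPKM in CM and 445509 in CMT. The adipocyte genes ADIPOQ and LEP and the muscle genes ACTA1 and MB were listed at 0 in both libraries. Of the erythroid, adipocyte and muscle markers 5 passed the minimum. Among these the erythroid genes HBB and ALAS2 rose, with log2 ratios of 0.60 and 0.92. The summed FPKM of that list was lowest for CM (3495), against 5249 for CMT and 17345 for IM.

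Of the 15877 genes, 1956 (12.3%) were higher and 2194 (13.8%) were lower in CMT than in CM, so that 26.1% differed by at least 1.5-fold. The other 11727 lay within 1.5-fold. The median log2 ratio of CMT to CM was 0.01, with 90% of the genes between -1.18 and 0.98. At 2-fold, 769 genes (4.84%) were higher and 1049 (6.61%) lower, and at 8-fold 32 were higher and 71 lower. Large falls were therefore more frequent than large rises. Reads were recovered for 1811 of the genes that rose, and for 1447 of these the interval lay above a ratio of 1. The same held below a ratio of 1 for 1526 of 2090 genes that fell.

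The balance of rises and falls depended on how much a gene was expressed. In the lowest quintile of mean log2 FPKM 17.2% of genes were higher and 30.4% lower in CMT, while in the highest quintile 18.1% were higher and 4.97% lower. The median log2 ratio was -0.22 in the lowest quintile and 0.18 in the highest. Among the 12280 genes that reached 10 FPKM in both libraries, 1331 (10.8%) were higher and 1000 (8.14%) lower. The balance also depended on the scaling. When the libraries were scaled to the recovered reads, all log2 ratios shifted by -0.24 and 1085 genes were higher and 3608 lower. With equal column sums the shift was -0.25, and 1073 genes were higher and 3682 lower. The genes that rose were 47.1% of all called genes with the deposited values, 23.1% with the recovered reads and 22.6% with equal column sums. A log2 ratio between 0 and about 0.24 therefore has no settled sign. A correction for level, by a smooth (lowess) fit of the ratio on mean log2 FPKM, gave a different range. The fit was 0.29 at a mean log2 FPKM of 14 and -0.18 at 2. Ratios up to about 0.29 at high levels, and small negative ratios at low levels, are thus not settled either. The lists below are described with this in view.

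**Figure D1:**
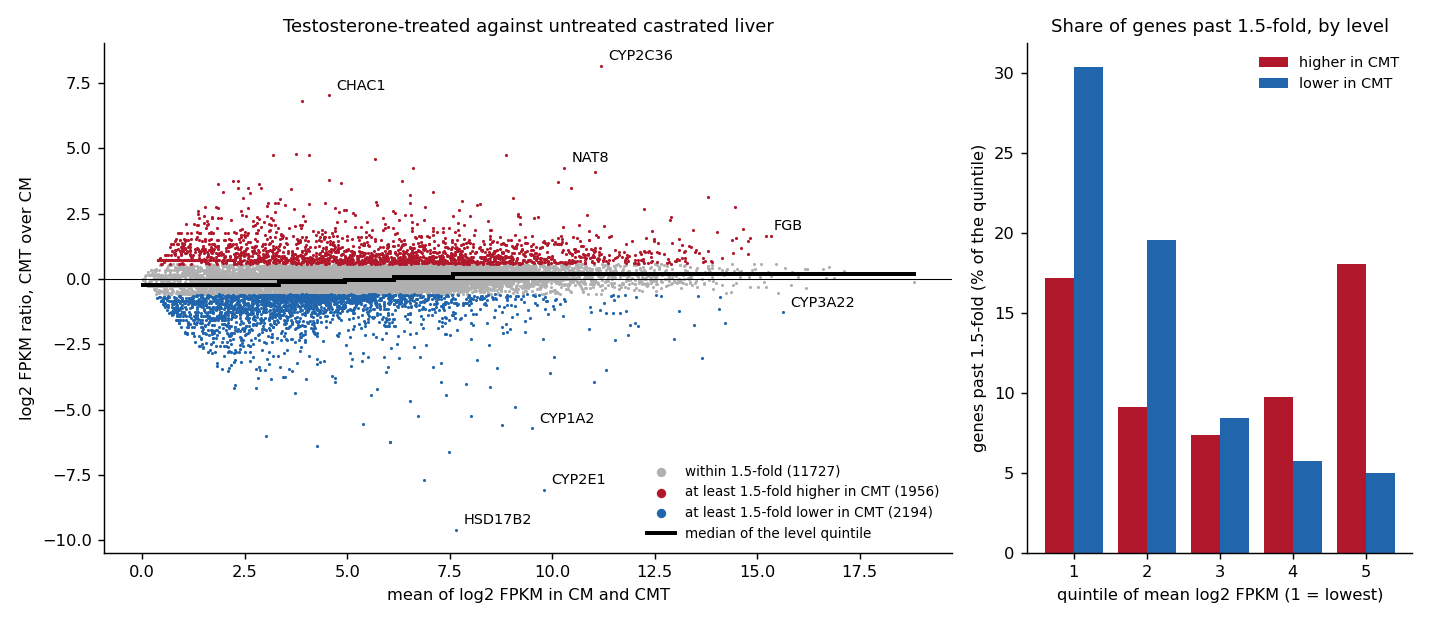
The left panel plots the log2 FPKM ratio of CMT over CM (vertical axis) against the mean log2 FPKM of both libraries (horizontal axis) for the 15877 genes, with red points at least 1.5-fold higher and blue points at least 1.5-fold lower in CMT, and black lines for the median of each level quintile, which climb from -0.22 to 0.18. The right panel gives the share of genes past 1.5-fold in each quintile as bars, where the lower genes go from 30.4% in the lowest quintile to 4.97% in the highest.

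The largest rise was that of CYP2C36, a cytochrome P450 of the CYP2C subfamily. It stood at 21594 FPKM in IM, 138 in CM and 39447 in CMT, which was 286-fold higher in CMT than in CM (interval 266 to 308). NAT8, an acetyltransferase of the endoplasmic reticulum, was at 5274 FPKM in IM, 288 in CM and 5515 in CMT, rising 19.1-fold (18.4 to 19.97). APCS, which encodes serum amyloid P component, was at 6542, 511 and 8867 FPKM in the same order, a rise of 17.3-fold (15.7 to 19.2). For these 3 genes CM was the low library and IM was nearer to CMT than to CM. CROT, the peroxisomal carnitine octanoyltransferase, rose 13-fold (12.5 to 13.5) from 315 FPKM in CM to 4099 in CMT, with 2805 in IM. SDS, serine dehydratase of the gluconeogenic route, rose 11.1-fold (10.6 to 11.5) from 424 to 4697 FPKM, and was higher still in IM at 12000.3. CUX2, a transcription factor, had 226 FPKM in IM, 30.2 in CM and 282 in CMT, which was 9.32-fold higher than in CM. TNF, the inflammatory cytokine, rose 7.64-fold (5.67 to 10.5) from 19.0 to 145 FPKM, with 106 in IM. AACS, which activates acetoacetate for lipid synthesis, rose 7.43-fold (6.98 to 7.91) from 111 to 822 FPKM.

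Of the genes with the largest rises, DERL3 and SDF2L1, both part of the endoplasmic reticulum machinery for misfolded proteins, had nearly the same value in IM as in CM. DERL3 was at 23.1 FPKM in IM, 22.0 in CM and 296 in CMT, rising 13.5-fold (10.5 to 17.5). SDF2L1 was at 204, 181 and 1541 FPKM, a rise of 8.53-fold (7.25 to 10.1). In both, CMT stood apart from the other libraries. RASL11B, a small GTPase of the RAS type, was at 220.0, 42.7 and 429.6 FPKM and rose 10.1-fold (8.87 to 11.4). EIF4EBP3, a repressor of cap-dependent translation, rose 7.91-fold (6.75 to 9.32) to 632 FPKM in CMT, from 79.9 in CM. Of the 15 highest ratios among genes with at least 10 FPKM in both libraries, 3 belonged to features with no gene symbol.

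The largest fall among genes with at least 10 FPKM in both libraries was that of CYP2E1, the ethanol-inducible P450. It was at 3148 FPKM in IM, 14546 in CM and 54.4 in CMT, falling 267-fold (interval 221 to 327). CYP1A2 was at 3502, 5294 and 101 FPKM and fell 52.5-fold (45.7 to 60.5). CYP1A1, which like CYP1A2 is a target of the aryl hydrocarbon receptor, was at 536, 1591 and 42.5 FPKM and fell 37.4-fold (31.4 to 45.1). In these 3 genes CMT lay far below IM as well as below CM. CYP2A19 fell less, by 3.20-fold (3.13 to 3.27), from 7399 FPKM in CM to 2313 in CMT, with 1046 in IM. FMO5, a flavin-containing monooxygenase, fell 17.3-fold (15.7 to 19.2) from 1487 to 85.9 FPKM.

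Among mitochondrial and metabolic enzymes, ACAA2, the thiolase of the last step of mitochondrial fatty acid oxidation, was at 1004 FPKM in IM, 2982 in CM and 99.4 in CMT, falling 30.02-fold (25.1 to 36.2). GPT2, the mitochondrial alanine aminotransferase, was at 241, 648 and 17.0 FPKM and fell 38.1-fold (30.1 to 49.0). Both enzymes shared the order CM above IM above CMT. The same order held for HSD17B13, a lipid droplet protein, at 4557, 8138 and 525 FPKM, a fall of 15.5-fold (14.9 to 16.2), and for AQP9, the glycerol channel, at 427, 795 and 36.6 FPKM, a fall of 21.7-fold. MIOX, the inositol oxygenase, fell 16.4-fold (14.3 to 18.9) from 972 to 59.3 FPKM, and EXTL1, a heparan sulfate glycosyltransferase, fell 25.3-fold (19.7 to 33.0) from 463 to 18.3 FPKM. NQO1, a quinone reductase, and PIGR, the carrier of polymeric immunoglobulins, differed from these in that IM was nearer to CMT than to CM on the log scale. NQO1 stood at 47.5 FPKM in IM, 604 in CM and 39.9 in CMT, falling 15.1-fold (11.9 to 19.5), and PIGR at 36.1, 212 and 18.0 FPKM, a fall of 11.8-fold (9.35 to 15.1). Of the 15 lowest ratios, 1 belonged to a feature with no symbol.

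**Figure D2:**
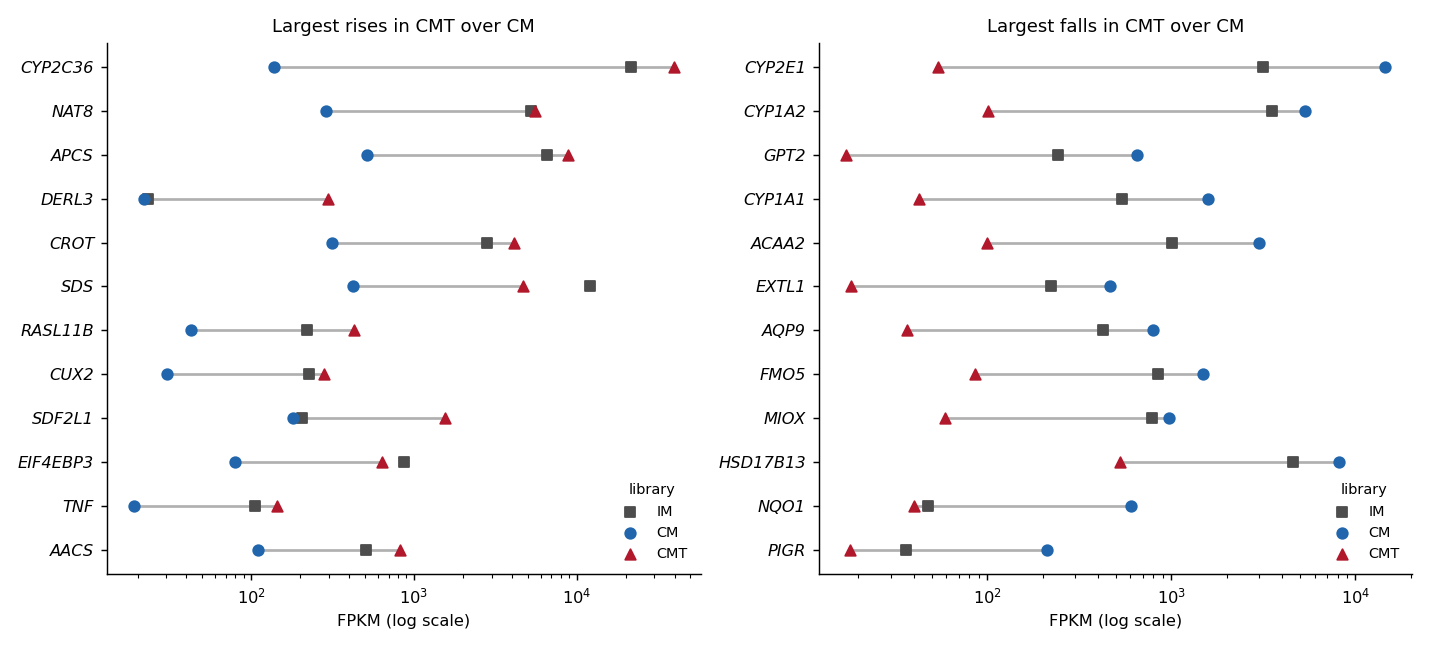
FPKM on a log scale (horizontal axis) in IM (squares), CM (circles) and CMT (triangles) for the genes reported here with the largest rises (left) and the largest falls (right) in CMT over CM among genes with at least 10 FPKM in both libraries, 1 library per symbol, with a grey line from CM to CMT. For most of the rises IM lies nearer to CMT than to CM on this scale, as for NAT8 at 5274 and 5515 FPKM, whereas for most of the falls IM lies between CM and CMT, as for ACAA2 at 1004 FPKM.

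Large ratios also lay at genes whose lower value was below 10 FPKM, and 3 of these were chosen here after their values were seen. HSD17B2, which oxidizes testosterone to androstenedione, was at 41.5 FPKM in IM, 5614 in CM and 7.30 in CMT, resting on 7738 reads in CM and 6 in CMT, falling 769-fold (353 to 2097). CA3, a carbonic anhydrase of muscle and liver, was at 444, 1689.6 and 8.09 FPKM, a fall of 209-fold (101 to 519.8). CHAC1, which degrades glutathione and responds to stress of the endoplasmic reticulum, was at 280.0, 2.07 and 271 FPKM, a rise of 131-fold (74.5 to 254). HSD17B2 was thus high in CM alone, and CHAC1 low in CM alone. Listed at 0 in one library and above 0 in the other were 444 genes for CM and 1122 for CMT, and 198 and 332 of these reached 1 FPKM in the other. The median FPKM of the 444 and the 1122 genes in the other library was 0.90 and 0.61. The CMT library had fewer recovered reads (25446543, against 36158202 in CM), and the part of depth in these counts was not tested. GDNF, a neurotrophic factor, had no read in CM and 112 reads in CMT (35.95 FPKM), at least 62.6-fold higher against a floor of 3 reads in the CM library. TREH, the enzyme that splits trehalose, had 214 reads (34.1 FPKM) in CM and none in CMT, at least 42.5-fold lower, and TMEM45B, a membrane protein, had 112 reads (19.0 FPKM) and none, at least 22.3-fold lower, both against 3 reads in the CMT library.

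By mass of transcript, most of the gains and losses lay outside the 10 largest of each. The FPKM of all mRNA features summed to 6821724.9 in CM and 8001233.0 in CMT. Gains added up to 1825558.6 FPKM, of which the 10 largest held 21.2%, and losses to 646050.5, of which the 10 largest held 35%. The excess of gains over losses is the difference between the mRNA sums, so it rests on the scaling. With equal mRNA sums, gains and losses would be equal by construction. FGA, FGB and FGG, the chains of fibrinogen, were among the largest gains. FGA was at 50861 FPKM in IM, 23414 in CM and 73313 in CMT, FGB at 46989, 21358 and 67812, and FGG at 31880.2, 16745 and 46457, so all 3 chains rose by similar folds, 3.13-fold, 3.18-fold and 2.77-fold (2.76 to 2.79 for FGG). CYP3A46 gained next to CYP2C36, from 13314 to 49896 FPKM, or 3.75-fold (3.68 to 3.82). APOE, the remnant lipoprotein ligand, and mitochondrial COX1 gained in FPKM but stayed within 1.5-fold, at 1.23-fold (1.22 to 1.23) and 1.38-fold (1.37 to 1.39). The log2 ratio of APOE, 0.29 as deposited, was 0.06 when scaled to the recovered reads and -0.02 when corrected for level.

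The largest loss was that of CYP3A22, which was at 70322 FPKM in IM, 79169 in CM and 32845 in CMT, falling 2.41-fold (2.39 to 2.43). MT1A and MT-2B, the metal-binding metallothioneins, were at 37008 and 33938 FPKM in CM and 4529 and 10566 in CMT, falls of 8.17-fold and 3.21-fold. SLA-1, a class I histocompatibility heavy chain, fell 3.35-fold from 20796 to 6203 FPKM, and GSTA1, a glutathione transferase, 2.19-fold from 25395 to 11614 FPKM. FTL, the ferritin light chain, CYP3A39 and ALB were among the largest losses by mass but within 1.5-fold, at 1.28-fold (1.27 to 1.29), 1.44-fold (1.42 to 1.46) and 1.07-fold lower. The CYP2C, CYP3A, metallothionein, SLA and GSTA genes have near-identical copies in the pig genome among which reads can be split, so the value of a single member is uncertain.

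Genes of androgen action and steroid metabolism were taken first among the lists. The counts of each list stand against 12.3% higher and 13.8% lower over all genes. In the highest level quintile these shares were 18.1% and 4.97%. Of 24 measured members of the list of steroid receptors and steroid enzymes, 4 rose and 8 fell, with a median log2 ratio of -0.17. FKBP5, a co-chaperone of steroid receptors and a known androgen and glucocorticoid target, rose 3.50-fold (3.35 to 3.65) from 106 FPKM in CM to 370.3 in CMT, with 427 in IM. FKBP5 was thus lowest in CM. The enzymes HSD17B4 and HSD17B6 also rose, by 3.10-fold (3.04 to 3.16) and 1.96-fold, whereas HSD3B1 fell 4.46-fold (3.75 to 5.33), from 382 to 85.7 FPKM, and AKR1C1 4.25-fold, from 342 to 80.5 FPKM. SULT2A1, the sulfotransferase of hydroxysteroids, fell 2.29-fold (2.2 to 2.38), from 3448 to 1507 FPKM. ESR1, the estrogen receptor, had 22.1 FPKM in CM and 12.3 in CMT, and SRD5A1, a steroid reductase, 4.23 and 2.58. The intervals of both folds, here CM over CMT, held 1, at 0.733 to 4.98 for ESR1 and 0.703 to 4.26 for SRD5A1. For ESR1 the interval is wider than 22.1 and 12.3 FPKM would give on a transcript of 1 kb, so its recovered reads may be too low. SHBG, the carrier of sex hormones, was at or under 1 read in CM and CMT, and SRD5A2 was below the minimum in CMT.

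In the growth hormone axis, the rises depended in part on the scaling. Of 22 measured members 7 rose and 1 fell, with a median log2 ratio of 0.42, while 4 rose and 4 fell, with a median of 0.18, when scaled to the recovered reads. CISH and SOCS2, feedback inhibitors induced by growth hormone through STAT5, were at 365 and 578 FPKM in IM, 78.3 and 129 in CM, and 275 and 214 in CMT, rises of 3.51-fold (2.77 to 4.47) and 1.65-fold (1.52 to 1.80). IGFALS, the stabilizer of circulating IGF, rose 2.34-fold (2.22 to 2.47), from 344 to 807 FPKM. The growth hormone receptor GHR rose 1.65-fold (1.58 to 1.73), from 609.9 to 1007 FPKM. IGF1 itself was at 59.4 FPKM in IM, 32.6 in CM and 29.1 in CMT, with an interval of the ratio that held 1. PRLR, the prolactin receptor, fell from 18.1 to 8.35 FPKM.

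Drug metabolism was split within gene families. Of 38 measured P450 and other phase I genes, 12 rose and 10 fell, and the median of 0.10 turned to -0.14 when scaled to the recovered reads. Besides CYP2C36, the members CYP2C49, CYP2C42 and CYP2C33 rose 3.69-fold, 3.69-fold and 3.49-fold, from 5737, 25.3 and 8849 FPKM in CM. AHR, the aryl hydrocarbon receptor, rose 4.76-fold from 53.6 to 255 FPKM, while CYP1A1 and CYP1A2, genes it is known to induce, were among the largest falls. FMO1 rose 2.88-fold (2.85 to 2.92) while FMO5 fell, and CES1, a carboxylesterase, was 2.01-fold higher while CES3 was 2.67-fold lower (2.56 to 2.78). Of 28 conjugation enzymes 8 rose and 8 fell. SULT1A1, the phenol sulfotransferase, was at 104 FPKM in IM, 1769.7 in CM and 18.1 in CMT, falling 97.6-fold (69.7 to 141). NNMT, the nicotinamide methyltransferase, fell 3.58-fold (2.84 to 4.55), whereas GLYAT, which conjugates acyl groups with glycine, rose 2.74-fold from 3478 to 9518 FPKM and MGST3, a microsomal glutathione transferase, 2.08-fold (1.97 to 2.19).

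Of 20 hepatic transporters, 8 rose and 1 fell, with a median log2 ratio of 0.44 (7 and 5, with 0.21, when scaled to the recovered reads). SLC22A7, an organic anion transporter, rose 2.38-fold (2.30 to 2.47), from 1124 to 2681 FPKM. SLC51B, a subunit of the basolateral bile acid exporter, had the largest fall, from 220.5 to 27.0 FPKM, or 8.17-fold (6.25 to 10.9), with 39.3 in IM.

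The enzymes that burn fatty acids were mostly higher in CMT, with a few members far lower. Of 30 measured genes of mitochondrial fatty acid oxidation 18 rose and 2 fell, and the median log2 ratio was 0.64. The median stayed positive, at 0.41, when scaled to the recovered reads, but then 10 rose and 2 fell. ACADL, a long-chain acyl-CoA dehydrogenase, was at 1646 FPKM in IM, 619 in CM and 2479 in CMT, rising 4.0-fold (3.85 to 4.16). CPT1A, which carries long-chain acyl groups into mitochondria, was at 831, 353 and 812 FPKM, a rise of 2.30-fold (2.21 to 2.40). ACOT13 rose 3.22-fold (3.12 to 3.33) and ECI1 2.52-fold (2.41 to 2.63). The members that fell were ACAA2, given above, and SLC22A5, the carnitine transporter, 1.95-fold lower (1.54 to 2.48).

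Of 47 measured peroxisomal genes 18 rose, 0 fell and 29 lay within 1.5-fold, with a median log2 ratio of 0.37 (0.13 when scaled to the recovered reads, with 8 higher and 2 lower, and 10 higher and 1 lower when the ratio was corrected for level). After CROT, the largest rises were those of AMACR, the racemase of branched-chain acyl groups, at 3.60-fold (3.49 to 3.72) from 1006 to 3623 FPKM, of HSD17B4, the multifunctional enzyme of peroxisomal oxidation, and of NUDT19, at 3.08-fold (2.68 to 3.54). PHYH, which degrades phytanic acid, rose 2.64-fold (2.58 to 2.69), from 3779 to 9967 FPKM.

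Among 11 ketone body genes 4 rose and 2 fell, with a median log2 ratio of 0.16 that turned to -0.08 when scaled to the recovered reads. BDH1, the hydroxybutyrate dehydrogenase, rose 2.53-fold (2.34 to 2.73). Of 26 PPAR receptors, coactivators and targets 10 rose (38.5%) and 4 fell, and the median was 0.38 (5 and 6, with 0.14, when scaled to the recovered reads). PPARD rose 1.81-fold (1.66 to 1.97), from 86.0 to 155 FPKM. PPARG, the receptor known from adipocytes, fell from 19.7 to 9.73 FPKM. PDK4, which shuts pyruvate dehydrogenase in fasting, fell 4.19-fold (3.88 to 4.52), from 905 to 216 FPKM, with 1046 in IM.

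Lipogenic genes were mixed. In the list of fatty acid synthesis, desaturation and elongation 6 of 24 rose and 3 fell, with a median of 0.36 (4 and 5, with 0.12, when scaled to the recovered reads). THRSP, a lipogenic regulator, was at 550.2 FPKM in IM, 262 in CM and 1360.5 in CMT, rising 5.18-fold (4.91 to 5.47), and SREBF1, the transcription factor of lipogenesis, rose 1.56-fold (1.48 to 1.64). FASN, the fatty acid synthase, and SCD, the stearoyl desaturase, were within 1.5-fold, at 1.34-fold (1.27 to 1.42) and 1.06-fold (1.04 to 1.09) higher. FADS2 and FADS1, the desaturases of polyunsaturated fatty acids, fell together, 4.06-fold (3.79 to 4.34) and 1.77-fold (1.51 to 2.09). Among 30 triglyceride and lipid droplet genes 8 rose and 5 fell, with a median of 0.23 (5 and 5, with -0.01, when scaled to the recovered reads). PLIN3 rose 2.38-fold (2.23 to 2.53), whereas PLIN4 fell 2.41-fold (2.04 to 2.88) and DGAT2, the last enzyme of triglyceride synthesis, 1.83-fold (1.53 to 2.2), from 862 to 469.8 FPKM.

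Sterol synthesis rose broadly. Of 27 measured genes of sterol synthesis and SREBP2-controlled uptake, 18 rose and 2 fell, and the median log2 ratio was 0.69. Most rises were modest, and 6 genes were higher and 3 lower past 1.5-fold when the values were scaled to the recovered reads, where the median was 0.46. STARD4, a cytosolic sterol carrier, was at 245 FPKM in IM, 97.3 in CM and 269 in CMT, rising 2.76-fold (2.30 to 3.32). MVK, mevalonate kinase, rose 2.44-fold (2.32 to 2.57), PMVK, the next kinase of the route, 2.31-fold (2.09 to 2.55), and FDPS, farnesyl diphosphate synthase, 2.29-fold (2.11 to 2.48). NPC1L1, the carrier that takes up sterol from bile and gut, fell 2.37-fold (1.84 to 3.09).

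Bile acid genes followed the same direction. Of 28 measured members 12 rose and 1 fell, with a median log2 ratio of 0.58 (0.34 and 7 higher with 5 lower when scaled to the recovered reads). CYP27A1, which starts the acidic route of bile acid synthesis, rose 2.08-fold (2.05 to 2.10), from 2191 to 4553 FPKM. SLC10A1, the uptake carrier for bile acids, rose 1.92-fold from 1282 to 2458 FPKM. NR1H4, the bile acid receptor FXR, rose 1.82-fold (1.74 to 1.91). CYP7A1, the rate-limiting enzyme of the classic route, was at 937 FPKM in IM, 1531 in CM and 1177 in CMT, 1.30-fold lower in CMT than in CM (1.27 to 1.33) and within 1.5-fold. Of 29 apolipoprotein and lipoprotein remodelling genes 7 rose and 2 fell, with a median of 0.31 (4 and 3, with 0.07, when scaled to the recovered reads). LIPG, the endothelial lipase, was at 894, 110.3 and 594 FPKM and rose 5.38-fold (4.95 to 5.86), and LCAT, which esterifies cholesterol in plasma, rose 2.09-fold (2.01 to 2.17). ABCG1, a sterol exporter controlled by LXR, fell 2.19-fold (2.05 to 2.35).

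Amino acid breakdown had rises and falls of large size. Of 43 measured genes 14 rose and 7 fell, with a median of 0.34 (9 and 7, with 0.10, when scaled to the recovered reads). BCKDHA, a subunit of the branched-chain keto acid dehydrogenase, rose 5.24-fold (5.07 to 5.43), from 351 to 1841 FPKM, GNMT, the glycine methyltransferase, 3.07-fold (2.97 to 3.17), and HGD, of tyrosine breakdown, 2.80-fold (2.69 to 2.93). GLUL, the glutamine synthetase of hepatocytes around the central vein, fell 3.78-fold (3.63 to 3.93), from 3677 to 974 FPKM, with 1789 in IM. Of 35 genes of the citrate cycle and pyruvate dehydrogenase 8 rose and 1 fell, or 3 and 2 with the recovered reads. PC, pyruvate carboxylase, rose 2.72-fold (2.64 to 2.80), and PCK1, the gatekeeper of gluconeogenesis, was at 15266 FPKM in IM, 6514 in CM and 11000.0 in CMT, rising 1.69-fold (1.67 to 1.71). The list of gluconeogenesis and glycolysis had no such shift, as 6 of 32 measured genes rose and 3 fell, with a median of 0.10. When scaled to the recovered reads 4 of them rose and 7 fell, with a median of -0.14. The 36 nuclear subunits of oxidative phosphorylation had a median of 0.30, with 7 higher (19.4%, against 18.1% of genes in the highest level quintile) and 0 lower. The 13 mitochondrially encoded proteins had log2 ratios between 0.29 and 0.56, all within 1.5-fold. Both medians were close to the scaling shift, at 0.07 and 0.14 when scaled to the recovered reads. Mitochondrially encoded transcripts made up 6.63% of the mRNA sum in CM and 7.48% in CMT.

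Acute phase proteins, the plasma proteins that hepatocytes secrete in inflammation, had the highest median of the 50 lists. Of 25 measured genes 14 rose and 2 fell, and the median log2 ratio was 0.96 (0.72 with 13 higher and 2 lower when scaled to the recovered reads). Besides APCS and fibrinogen, ITIH4 was at 10947 FPKM in IM, 3391 in CM and 16428 in CMT, rising 4.85-fold (4.78 to 4.92). LBP, the carrier of bacterial lipopolysaccharide, was at 1452, 789.9 and 3323 FPKM, a rise of 4.21-fold (4.07 to 4.35), and CRP, C-reactive protein, was at 1531, 832 and 2568 FPKM, a rise of 3.09-fold (3.03 to 3.15). CMT thus held the highest value of each. ORM1, the acid glycoprotein, was the opposite, at 3437, 5405 and 2319 FPKM. Of 30 coagulation genes 10 rose and 2 fell, and of 33 complement genes 6 rose (18.2%, against 18.1% of genes in the highest level quintile) and 0 fell. These counts became 6 and 2, and 4 and 0, with the recovered reads, where the complement median of 0.24 went to 0.01. HAMP, which encodes the iron hormone hepcidin, rose 1.72-fold (1.62 to 1.83), from 1669 to 2875 FPKM.

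Of 32 measured genes of the unfolded protein response 10 rose, 2 fell and 20 lay within 1.5-fold, with a median of 0.45 (9 and 2, with 0.21, when scaled to the recovered reads). After CHAC1 and SDF2L1, CRELD2 rose 3.64-fold (3.15 to 4.22), from 109 to 397 FPKM, PDIA4, a disulfide isomerase, 2.82-fold (2.75 to 2.89), from 1141 to 3218 FPKM, and DNAJB11, a cofactor of BiP, 2.51-fold (2.24 to 2.82), from 143 to 359 FPKM. In IM these 3 genes were at 103, 1051 and 133 FPKM, near the CM values. TRIB3 and DDIT3, of the apoptotic arm, fell 6.56-fold (3.63 to 13) and 1.61-fold (1.30 to 2.01).

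**Figure D3:**
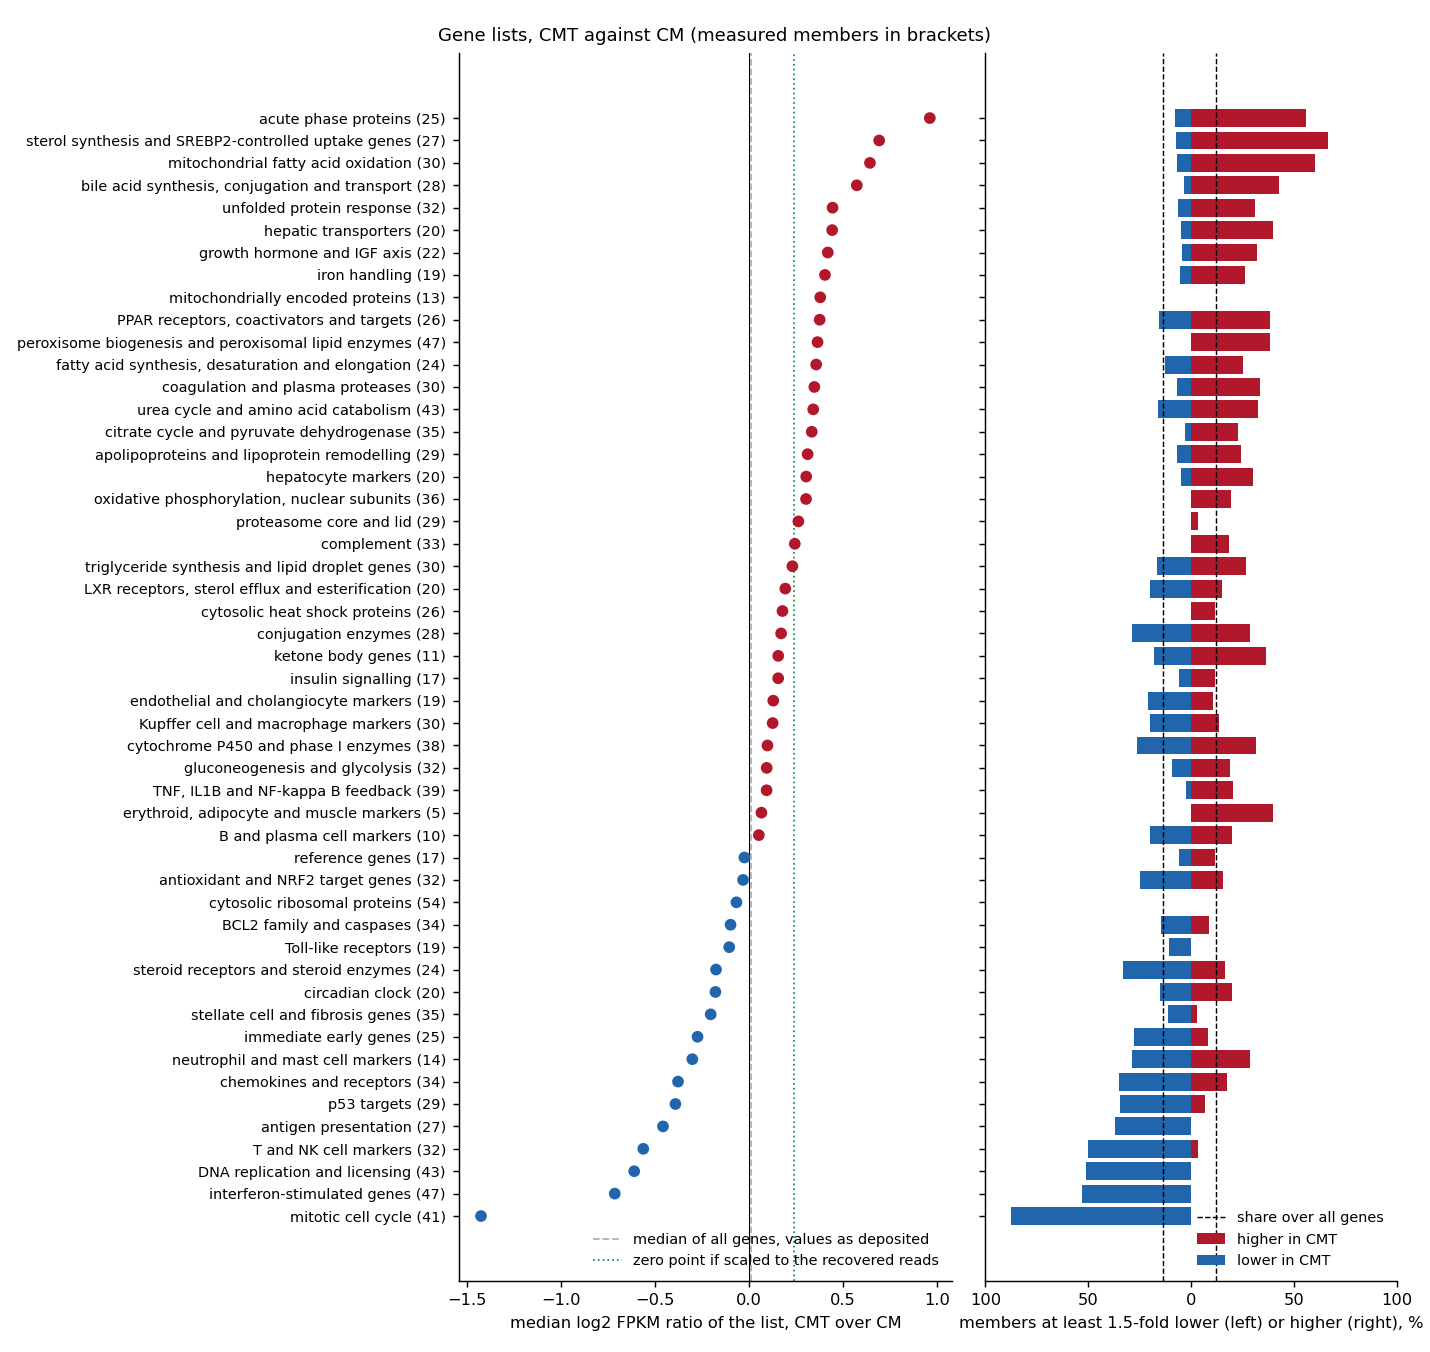
For each of 50 gene lists, with the number of measured members in brackets, the left panel gives the median log2 FPKM ratio of CMT over CM as a point, beside a dashed line for the median of all genes (0.01) and a dotted line at the point that becomes 0 when the libraries are scaled to the recovered reads (0.24). The right panel gives the share of members at least 1.5-fold lower (blue, to the left) or higher (red, to the right), with dashed lines at 13.8% and 12.3% for all genes, and mitotic genes stand at the bottom with 36 of 41 lower.

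The largest shift of any list was the fall of mitotic genes. Of 41 measured genes of the mitotic cell cycle 36 fell and 0 rose, and the median log2 ratio was -1.42. It was -1.66 when scaled to the recovered reads and -1.27 with 36 genes lower when the ratio was corrected for level, and it shrank to -0.98 among the members with at least 10 FPKM in both libraries. CDK1, the kinase that starts mitosis, was at 3.64 FPKM in IM, 35.2 in CM and 9.71 in CMT, falling 3.62-fold (2.0 to 7.11). CDC20, which activates the anaphase-promoting complex, was at 6.37, 33.1 and 9.15 FPKM, and UBE2C, its ubiquitin-conjugating enzyme, at 11.6, 34 and 11 FPKM, a fall of 3.10-fold (1.56 to 6.85). MAD2L1, a spindle checkpoint protein, was at 25.1, 63.0 and 16.5 FPKM. CM held the highest value in each of these genes. MKI67, which encodes the proliferation antigen Ki-67, was at 194, 248 and 234 FPKM and was within 1.5-fold. The median FPKM of the 41 genes was 3.96 in IM, 14.6 in CM and 5.51 in CMT, levels at which 30.4% (lowest quintile) and 19.6% (second) of all genes were lower. A further 6 members of the list, among them CDCA5, TTK and ASPM, were below 1 FPKM in CMT and were not counted.

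DNA replication genes fell too. Of 43 measured genes 22 fell and 0 rose, with a median log2 ratio of -0.61, which was -0.31 among the members with at least 10 FPKM in both libraries. TYMS, thymidylate synthase, was at 52.8 FPKM in IM, 470.4 in CM and 51.3 in CMT, falling 9.16-fold (6.93 to 12.3). RRM2, a subunit of ribonucleotide reductase, was at 25.1, 124 and 30.1 FPKM, a fall of 4.13-fold (2.94 to 5.94), and MCM4, of the replicative helicase, at 27.9, 90.7 and 20.4 FPKM, a fall of 4.44-fold (3.58 to 5.57). IM and CMT were close in each, and CM stood above both. PCNA, the sliding clamp, fell 1.53-fold (1.28 to 1.83), from 120.3 to 78.8 FPKM. Among 29 targets of p53, 10 fell and 2 rose. CDKN1A, the cell cycle inhibitor p21, fell 2.83-fold (2.55 to 3.15), from 287 to 101 FPKM, PHLDA3 3.27-fold (2.86 to 3.76), AEN 3.43-fold (2.97 to 3.97) and BAX, the pore-forming apoptosis protein, 2.08-fold (1.81 to 2.39), whereas SESN1 rose 2.32-fold (2.10 to 2.57).

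Interferon-stimulated genes were lower in CMT. Of 47 measured genes 25 fell and 0 rose, and the median log2 ratio was -0.71. ISG20, an antiviral exonuclease, was at 28.6 FPKM in IM, 246 in CM and 40.4 in CMT, falling 6.10-fold (4.69 to 8.05). CMPK2 was at 144, 365 and 126 FPKM, a fall of 2.91-fold (2.64 to 3.20), and ISG15, the ubiquitin-like modifier, at 570.1, 1512 and 606 FPKM, a fall of 2.49-fold (2.38 to 2.62). CXCL10, the chemokine that draws T cells, was at 1582, 5085 and 2058 FPKM, a fall of 2.47-fold (2.38 to 2.56). In each of these CM was the highest library. Of 27 antigen presentation genes 10 fell and 0 rose, with a median of -0.46. The immunoproteasome subunits PSMB9 and PSMB8 fell 3.18-fold (2.97 to 3.40) and 2.23-fold (2.11 to 2.37), and the peptide transporter TAP1 1.9-fold (1.76 to 2.06), from 280.0 to 147 FPKM. B2M, the light chain of class I molecules, was at 32486 FPKM in CM and 26365 in CMT, within 1.5-fold.

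Markers of T and NK cells were lower in CMT as well. Of 32 measured markers 16 fell and 1 rose, with a median of -0.56, and the summed FPKM of the list was 1783 in CM and 1449.7 in CMT, with 1586 in IM. CD8A was at 59.5 FPKM in IM, 82.5 in CM and 33.5 in CMT, falling 2.47-fold (1.71 to 3.63). GZMA, a granzyme of cytotoxic cells, fell 2.21-fold (1.73 to 2.85), CD3D, of the T cell receptor complex, 2.17-fold (1.71 to 2.78), and CD2 2.06-fold (1.68 to 2.55). CD247, another chain of that complex, was the marker that rose, from 296 to 513 FPKM. In pooled bulk liver, fewer cells of a type and less RNA per cell cannot be told apart. The part of these cells in the fall of interferon-stimulated and antigen presentation genes was not tested.

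Kupffer cell and macrophage markers were mixed, with 4 of 30 higher (13.3%) and 6 lower (20%), against 12.3% and 13.8% of all genes. Their median of 0.13 turned negative when scaled to the recovered reads, and their summed FPKM was 44084 in CM and 41277 in CMT. MARCO, a scavenger receptor, was at 414 FPKM in IM, 82.8 in CM and 317 in CMT, rising 3.83-fold (3.43 to 4.29), and CD163, the hemoglobin scavenger receptor, rose 1.52-fold (1.35 to 1.72). LGALS3, galectin-3, fell 2.07-fold (1.99 to 2.16), from 2806 to 1355 FPKM, and GPNMB 1.55-fold (1.49 to 1.61), from 14996 to 9682 FPKM. Of 39 genes of TNF, IL1B and NF-kappa B feedback 8 rose and 1 fell, although 4 rose and 8 fell, and the median of 0.10 turned negative, with the recovered reads. Among 34 chemokines and receptors 12 fell and 6 rose. CXCL9 fell 1.79-fold (1.58 to 2.04) and CXCL2 2.08-fold (1.97 to 2.19), while CCL3L1, CCL4 and CCL8, attractants of monocytes, rose 3.25-fold (2.65 to 4.0), 2.36-fold (2.11 to 2.63) and 2.51-fold (2.07 to 3.03). CCL3L1 and CCL4 belong to families of close copies, among which reads can be split.

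**Figure D4:**
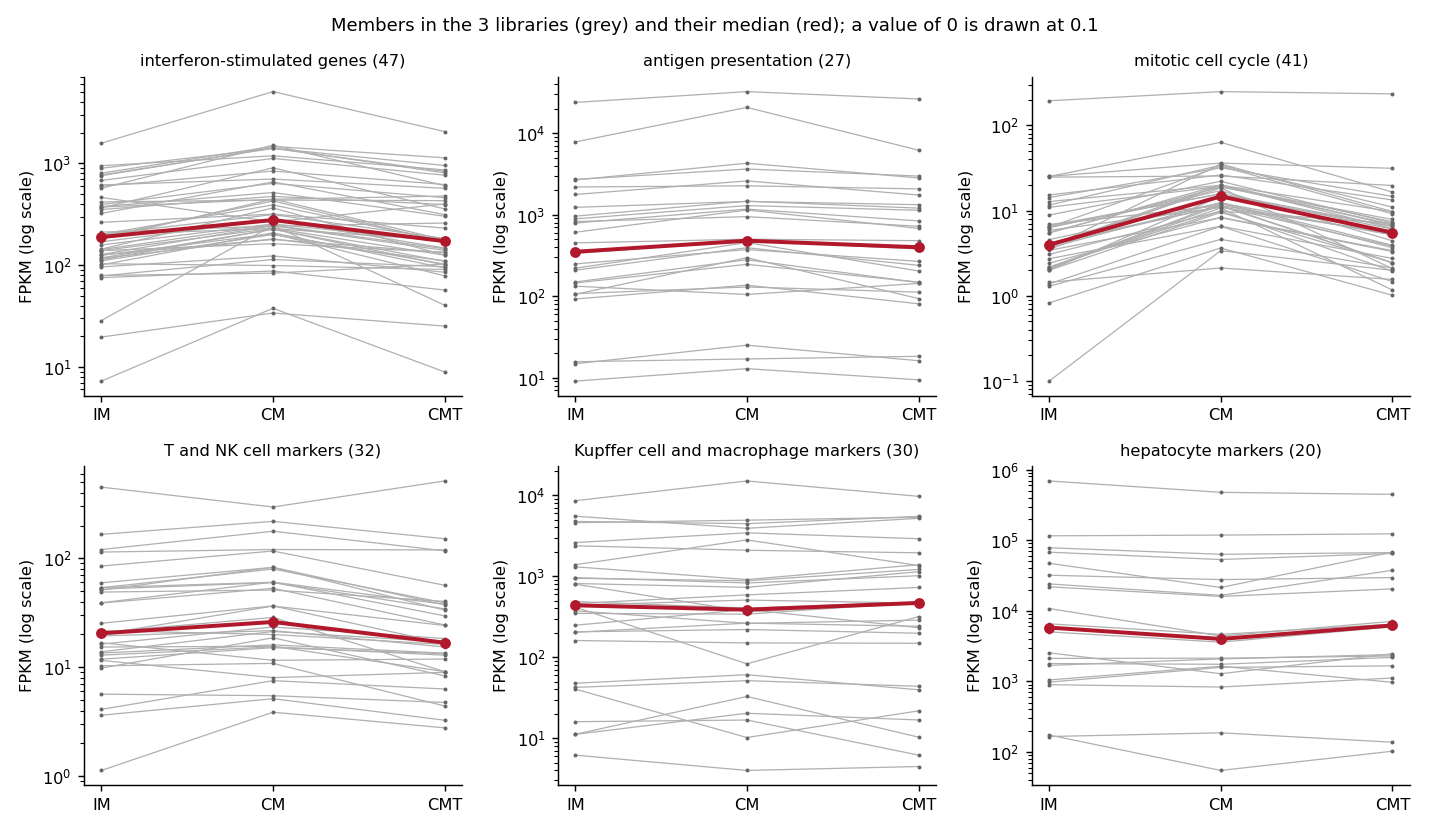
FPKM on a log scale (vertical axis) in IM, CM and CMT (horizontal axis) for the measured members of 6 lists, each member as a grey line and the median as a red line, 1 library per point. The median of mitotic genes goes from 3.96 in IM to 14.6 in CM and 5.51 in CMT, that of interferon-stimulated genes from 189 to 278 and 172, and that of hepatocyte markers from 5774 to 3986 and 6191, although the median log2 ratio of the hepatocyte markers was 0.31 and their summed FPKM was 1.09-fold higher in CMT (median 0.07 when scaled to the recovered reads).

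Other lists held a few large changes beside many members within 1.5-fold. Of 32 antioxidant and NRF2 target genes 5 rose and 8 fell. After NQO1 and MT1A, GPX3, the plasma glutathione peroxidase, fell 5.0-fold (4.85 to 5.17), from 6654 to 1329.5 FPKM, while the superoxide dismutase SOD1 and the mitochondrial peroxiredoxin PRDX3 rose 1.76-fold (1.72 to 1.81) and 1.80-fold (1.76 to 1.85). Among 25 immediate early genes 7 fell and 2 rose. FOS was at 630.2 FPKM in IM, 842 in CM and 145 in CMT, falling 5.81-fold (5.19 to 6.52), and EGR1 fell 2.53-fold (2.26 to 2.84). Among 20 clock genes 4 rose (20%) and 3 fell (15%), against 12.3% and 13.8% of all genes. Their median was -0.18 (-0.42 when scaled to the recovered reads). RORA rose 3.88-fold (3.41 to 4.42), NFIL3 3.14-fold (3.03 to 3.26), ARNTL, the partner of CLOCK, 2.83-fold (2.03 to 3.99), and PER2 1.95-fold (1.69 to 2.26). The members that fell were NPAS2, by 1.83-fold (1.30 to 2.61), BHLHE40, by 1.62-fold (1.46 to 1.80), and CSNK1E, by 1.62-fold (1.34 to 1.98).

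Of 35 stellate cell and fibrosis genes 4 fell (11.4%) and 1 rose (2.86%), against 13.8% and 12.3% of all genes. Their median log2 ratio was -0.20. When scaled to the recovered reads 10 fell and 0 rose, with a median of -0.44. THBS1, a matrix protein that activates TGF-beta, fell 4.24-fold (3.56 to 5.09), from 102 to 24.0 FPKM. The 54 ribosomal proteins had 0 higher and 0 lower, with a median of -0.07, and the 17 reference genes had a median of -0.02 with 2 higher and 1 lower. These medians became -0.30 and -0.26 when scaled to the recovered reads, and -0.35 and -0.23 when corrected for level. HPRT1, often used as a reference, was at 978 FPKM in CM and 1952 in CMT, rising 2.0-fold (1.92 to 2.08).

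**Figure D5:**
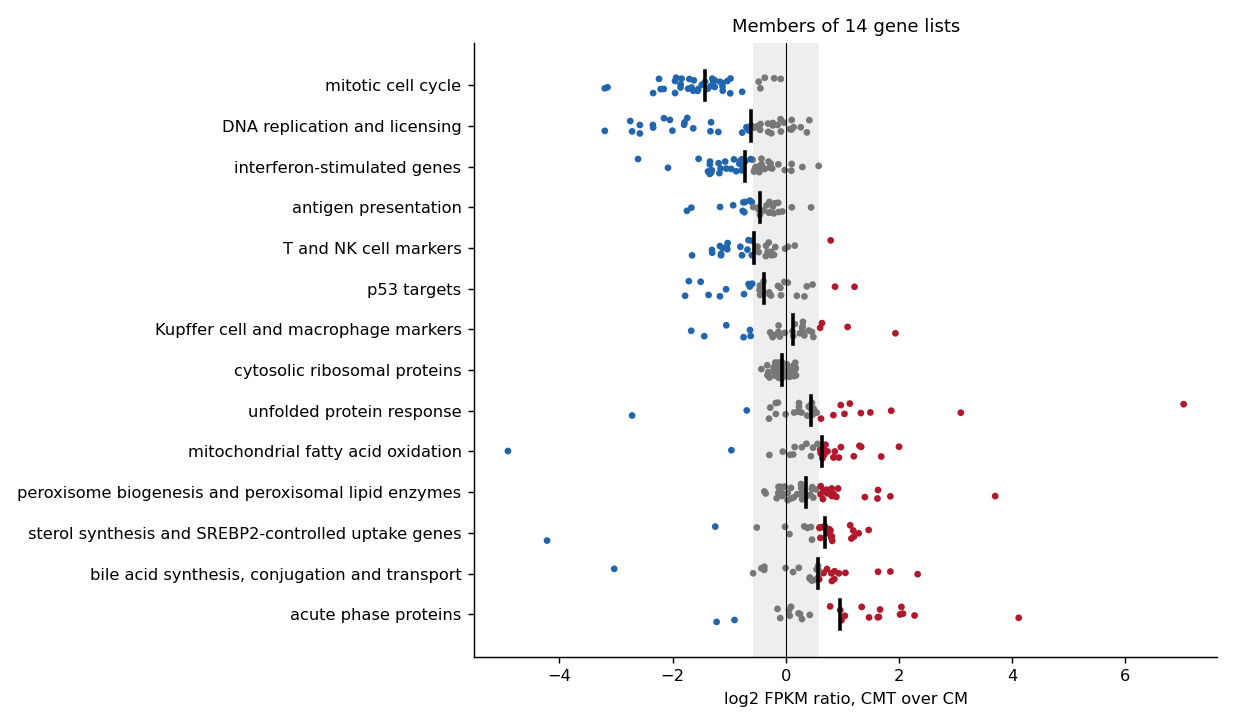
The log2 FPKM ratio of CMT over CM (horizontal axis) is shown for each measured member of 14 lists, with red points at least 1.5-fold higher, blue points at least 1.5-fold lower, grey points within 1.5-fold (shaded) and a black bar at the median of the list. Mitotic genes lie left of 0 with a median of -1.42, ribosomal proteins lie within 1.5-fold, and acute phase proteins reach the rightmost median of these lists at 0.96.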

How the data were processed

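Liver RNA of pigs of the same group was pooled by the authors in equal amounts into 1 library per group (IM, CM and CMT), selected for poly(A), sequenced as 100-bp read pairs and mapped to the pig genome Sscrofa10.2 with TopHat. The deposited files give FPKM per feature and library, made by the authors. The program that counted reads and the annotation are not given in the sources used here. Features were joined by name and type, and FPKM values were compared as deposited, with no rescaling and no pseudocount. The minimum of 1 FPKM in both libraries and the 1.5-fold threshold set the calls, which rest on 1 library per group and on no test. Symbols for 1347 of 8562 features named LOC were taken from RefSeq by gene ID, and 23 names had been turned into dates.

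Within a gene the FPKM values were whole multiples of a step to a tolerance of 0.003 reads, from which lengths of 100 to 10000 bases and reads were recovered for 23114 of 24277 features above 0 (95.2%), with library divisors of 2.51 for IM, 3.42 for CM and 2.04 for CMT. Because the shortest fitting length was used, reads that share a divisor in all 3 libraries can come out too low, which widens the interval. Reads counted as both mates of a pair, or copied by PCR, would make intervals too narrow. In simulated data on 19199 features the divisors were recovered and the reads were exact for 90.4%. All 200 genes changed 2.5-fold were called, but they were drawn from genes with many expected reads, so this was near certain. A further 747 unchanged features passed 1.5-fold by counting error. Simulated lengths were drawn evenly and not from the recovered lengths, so that number need not hold for the real libraries. An earlier simulation on 6000 features had put the CM divisor wrong by a factor of 2. The divisors were right in 10 of 10 further draws of 6000, and in the deposited values the ratio taken as equal reads was held by 679 features against 345 for the next.

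The genes, the 50 lists and the alternatives were chosen with earlier results of these data known. Named genes were the 15 highest and 15 lowest ratios among features with at least 10 FPKM in both libraries and, where recovered, 50 reads in each, the 10 largest gains and losses of FPKM, up to 4 members per list and direction, a fixed set of metabolic and endocrine genes, and up to 5 features each way listed at 0 in 1 library. The list members CYP2A19, CYP2C42, CYP2C33, FMO1, CES1, CES3, PHYH, PPARG, NR1H4, CRP, CDK1, CDC20, MKI67, PCNA, ISG15, B2M, CD2, CXCL9 and NPAS2 were added for their known roles after their values were seen. Some genes that the rule names are not reported here. Tools were Python 3.11.15, scipy 1.17.1, numba 0.67.0, numpy 2.4.6, statsmodels 0.14.6, pandas 2.3.3 and matplotlib 3.10.9.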

Additional observations from a re-analysis of the deposited data

Results flagged for a closer look

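Features of other types than mRNA were outside the comparison. Of 2905 such features with at least 1 FPKM in both libraries, 710 were higher and 554 lower in CMT than in CM by at least 1.5-fold. This drew attention because these features lie outside the genes compared. Among the mRNA genes, 1956 of 15877 (12.3%) were higher and 2194 (13.8%) lower. Most were of type miscRNA, where 606 of 2515 were higher and 477 lower, with a median log2 ratio of 0.07. Of 22 tRNA features 11 were higher and 3 lower, with a median of 0.62. The libraries were selected for poly(A), and neither the level of these features nor the scaling to the recovered reads was taken into account here.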

How the results depend on the processing

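With 1 library per group, no replicate could be left out. No paired analysis was possible because each group has 1 library and no test was made. Against 1956 genes higher and 2194 lower, a minimum of 10 FPKM gave 1331 and 1000, and a threshold of 2-fold 769 and 1049, both by their construction. Scaling to equal column sums gave 1073 higher and 3682 lower, and scaling to the recovered reads 1085 and 3608, both by the shift in log2 ratio given above. Requiring also an exact binomial test on the reads of these libraries with a Benjamini-Hochberg FDR under 0.05, which compares libraries and not conditions, gave 1392 higher and 1404 lower. Any value above 0 (2561 and 2718), 1 FPKM in all 3 libraries (1896 and 2110), all feature types (2666 and 2748), equal medians (1897 and 2286), equal upper quartiles (1619 and 2567), a pseudocount of 1 (1757 and 1957) and a lowess correction for length (1886 and 2285) or for level (1925 and 1995) stayed within 1.5 times of both counts. The correction for level was chosen after seeing the data. Of 50 list medians 14 changed sign under some setting. Over 7 settings that move log2 ratios, 1668 of 1778 values of named genes past 1.5-fold stayed past it, and 0 changed direction. For the uniform shifts this direction was fixed in advance, as they were at most 0.25 in log2 against a threshold of 0.585. Most of these genes were also picked for large ratios in these same data. Depth limits genes with few reads, such as SRD5A1 and many mitotic genes, and no setting can stand in for replicate pools.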
